A study of Mus musculus with 15 samples.

Results

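The 34 genes described here are the mouse cadherins and non-clustered protocadherins whose symbol is Cdh or Pcdh followed only by digits. They were taken by symbol from the 32285 genes of the deposited count tables, and comprised 23 Cdh and 11 Pcdh genes. Their RNA was measured by single-nucleus RNA sequencing (snRNA-seq) in micropunches of the dorsal hippocampal formation (dHF) of 15 female C57BL/6J mice, all wild-type adults, with 4 punches pooled for each library. The 6 NP mice had never been pregnant. The 4 control RE mice had been through pregnancy, birth and lactation until weaning. The 5 stress RE mice had in addition been given limited nesting material and daily separations from their pups late in the postpartum period. The groups were of matched age, and the comparisons address whether reproductive experience, with or without postpartum stress, goes with a lasting difference in the dHF.

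Cadherins are membrane proteins whose extracellular repeats bind calcium and, in most cases, the same cadherin on a neighbouring cell. Classical cadherins of type I and type II carry a cytoplasmic tail that binds catenins and through them the actin cytoskeleton, whereas Cdh13 has no such tail and is held in the membrane by a lipid anchor. Non-clustered protocadherins, among them the δ-protocadherins, adhere more weakly and signal through other partners. In the brain these proteins are known for the sorting of neurons into layers and nuclei, for the matching of axons with their targets and for the junctions of vessels and epithelia.

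The libraries held 5789 to 12738 barcodes each, with median UMI counts per nucleus of 3993 to 8754. After filtering, 123901 nuclei remained, of which 117389 fell into 29 classes that were named from marker genes and are marker-like classes in that sense. They included dentate granule, CA1, CA2, CA3 and mossy neurons, but also neurons with markers of the thalamus, the habenula and striatal projection neurons. Per the study's methods, the punches also took in some cortex, thalamus and ventral hippocampus. Its own analysis left out clusters with markers of neurons from outside the dHF. It likewise left out choroid plexus, ependymal and leptomeningeal cells, whereas such classes were kept here. Habenular nuclei reached the minimum of 10 in 12 mice and striatal nuclei in 8, and both varied from 0 to 357 and from 0 to 868 nuclei per mouse. Pairs of libraries shared 6 to 47 barcodes. Levels are given as CPM, the UMIs of a gene scaled to the UMI total of its class in a mouse, with the mean and SD over mice with at least 10 nuclei of that class. Clustering made no use of the members' own counts, and class levels are a description with no test.

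Of the 34 members, 29 reached a mean of 20 CPM in at least 1 class, and the lowest of these, Pcdh8, stood at 34.31 CPM. The other 5 stayed below in all classes, and their highest means were 11.4 CPM for Cdh1, 5.196 CPM for Pcdh12, 2.34 CPM for Cdh15, 0.509 CPM for Cdh17 and 0.488 CPM for Cdh16. The counts carry no correction for free RNA, and the low levels of a member outside its high classes were not read as expression. Different members were highest in different classes, as the heat map of all members shows. Highest class refers to the means of named classes, and single clusters, or clusters without a name, could lie higher. Of the 29 members described, 23 had the same highest class in the means of all 3 groups, and 8 had the same highest class in every mouse that had at least 10 nuclei of a class that 10 or more mice held. The highest class of a group was sought among classes with at least 2 of its mice. A small GABAergic cluster, the highest class of Cdh13 and Pcdh8 given below, had 1 NP and 0 control RE mice. It could therefore not be the highest class in either of those groups.

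**Figure D1:**
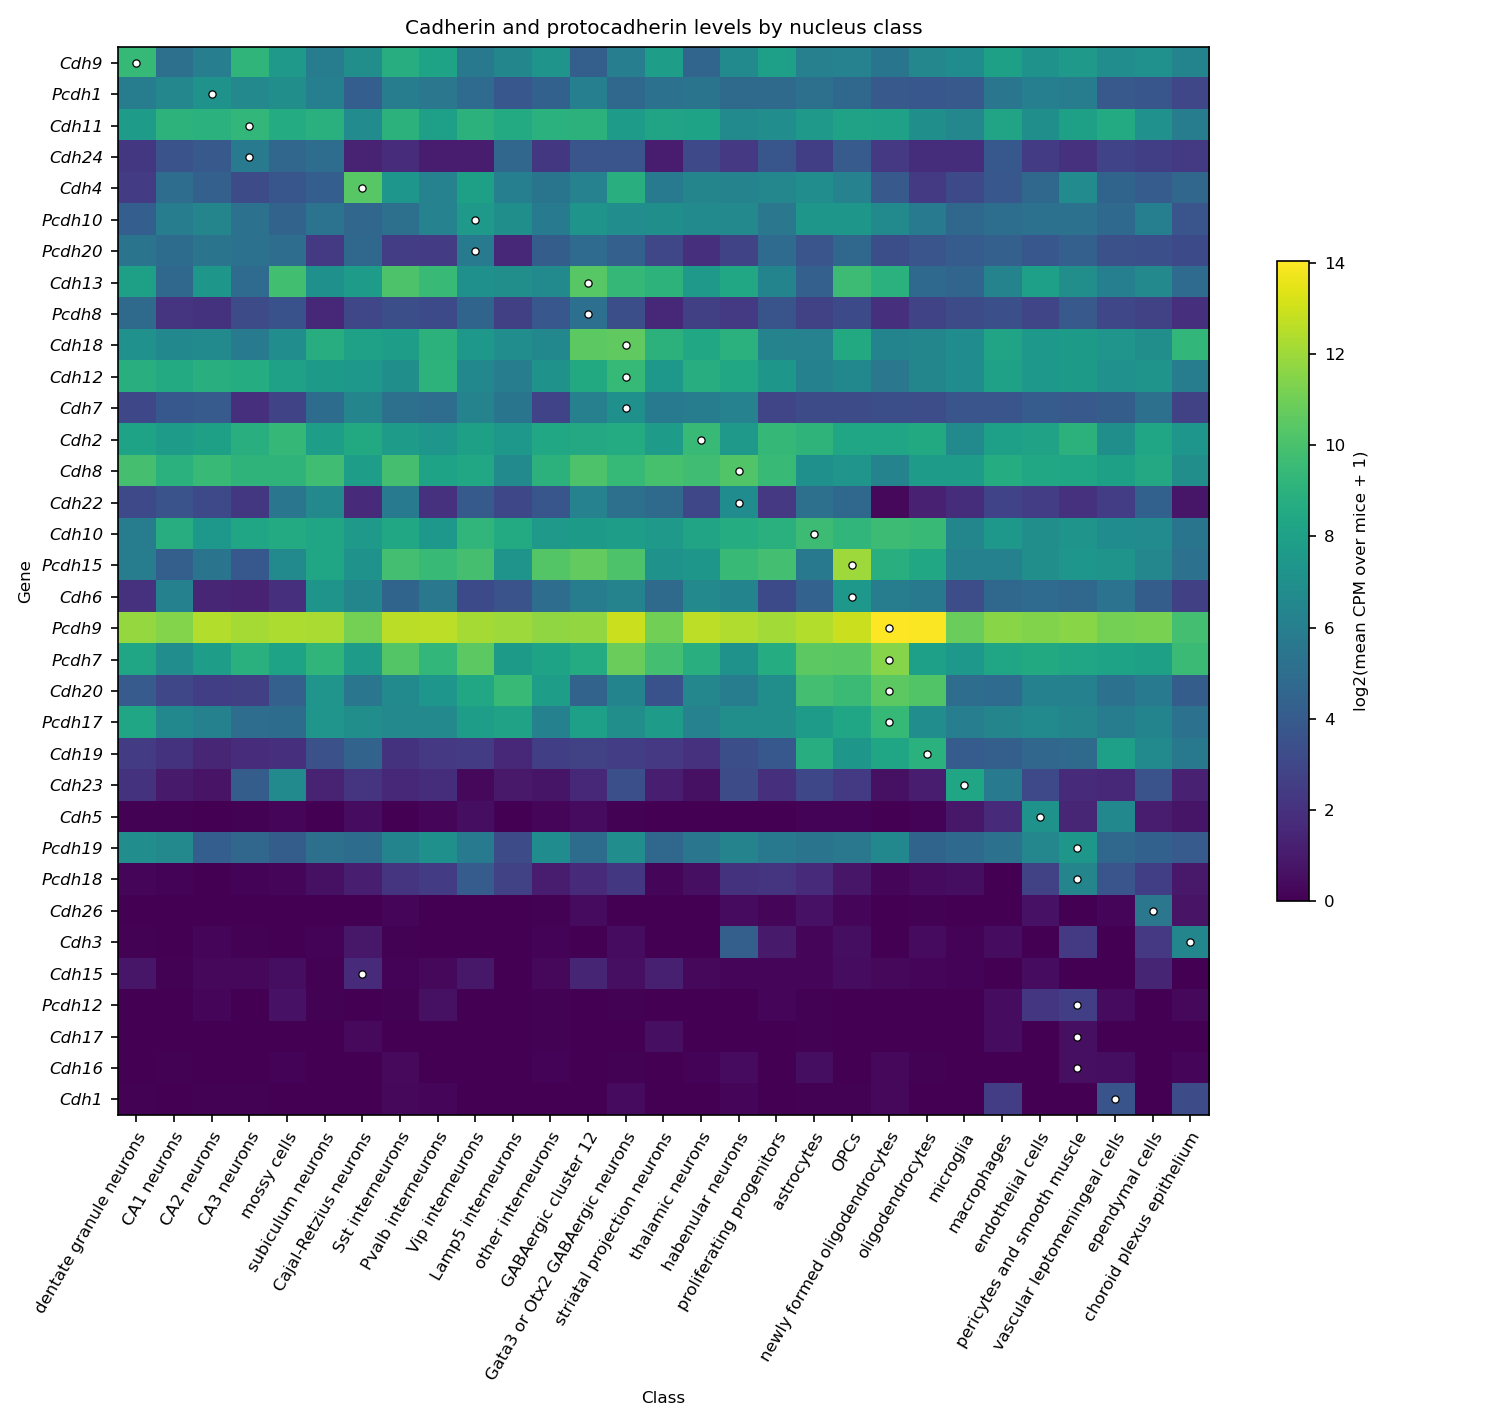
Heat map of the 34 members (vertical axis) in the 29 classes (horizontal axis), coloured by log2 of the mean CPM over mice plus 1; white circles mark the highest class of each member. Pcdh9 is high throughout, whereas Cdh5, Cdh3, Cdh26 and Pcdh18 are bright in few classes.

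Glial classes held the highest levels of 9 members. Pcdh9, a δ-protocadherin, had the highest CPM of all members in each of the 29 classes and was counted in 100% of newly formed oligodendrocytes. Its level was 16880 ± 6117 CPM (SD, n = 15) in newly formed oligodendrocytes and 16200 ± 1733 CPM (SD, n = 15) in oligodendrocytes, which did not differ beyond their spread, and newly formed oligodendrocytes were the higher of the pair in 7 of 15 mice. The oligodendrocyte class held 6 clusters, and in 4 of them the leading genes included a marker of newly formed oligodendrocytes such as Enpp6 or Bcas1 and none of the class's own. Those 4 clusters ranged from 16470 ± 1783 CPM of Pcdh9 in cluster 16 to 19000 ± 2339 CPM in cluster 26 (n = 15 each). In the other 2 clusters, numbered 15 and 17, with 9262 of the 28082 nuclei, Pcdh9 was at 14250 ± 1182 CPM (n = 13) and 15800 ± 1389 CPM (n = 14). Oligodendrocyte precursor cells (OPCs) followed at 7772 ± 726 CPM, and the lowest class was the choroid plexus epithelium at 918 CPM.

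Pcdh15, known as a component of the tip links of inner-ear hair cells, was highest in OPCs in 15 of 15 mice. It ranged there from 3499 to 4514 CPM with a median of 3983 CPM, and was counted in 99.6% of OPCs at a median depth of 4454 UMIs. In CA3 neurons, which had a median of 17100 UMIs, it was counted in 17.0% of nuclei and its mean was 13.9 CPM. It stood at 463 ± 224 CPM in newly formed oligodendrocytes and at 332 ± 47.3 CPM in oligodendrocytes. Oligodendrocyte clusters 15 and 17 held 364 ± 63.1 and 365 ± 70.2 CPM of Pcdh15. Several GABAergic classes came next, with 1648 ± 439 CPM (n = 3) in a small cluster numbered 12, 1233 ± 403 CPM in the class of other interneurons and 1117 ± 253 CPM in neurons marked by Gata3 or Otx2. In the class of other interneurons, 429 of 1358 nuclei lay in clusters whose leading genes did not favour another marker list, and there Pcdh15 was at 431 ± 146 CPM (cluster 34.2, n = 14) and 4461 ± 1981 CPM (cluster 34.5, n = 3). Cdh23, which is the partner of Pcdh15 in the tip link, had its highest level in another class. Microglia held 314 ± 75.4 CPM of Cdh23 (lowest 199, median 284, highest 487, n = 15), and were the highest class in 15 of 15 mice. Mossy cells followed at 98.6 ± 59.6 CPM (n = 11) and macrophages at 55.7 ± 26.2 CPM. Cdh23 was counted in 45.2% of microglia at a median of 2073 UMIs, and in 0.298% of Vip interneurons at a median of 8352 UMIs. The mean of Cdh23 in OPCs was 4.22 CPM, so that the pair did not share a highest class.

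Newly formed oligodendrocytes also held the highest level of 3 other members. Pcdh7, a δ-protocadherin of the δ1 group, was at 2883 ± 417 CPM there and at 239 ± 62.1 CPM in oligodendrocytes. Oligodendrocyte clusters 15 and 17 held 295 ± 73.2 and 199 ± 76.25 CPM of Pcdh7. Pcdh17, a δ-protocadherin of the δ2 group, reached 689 ± 353 CPM and was highest in this class in 15 of 15 mice, with a wide span of 260 to 1558 CPM. Its next class was the dentate granule neurons at 311 ± 56.1 CPM. Cdh20, a type II cadherin, reached 1471 ± 376 CPM, with 1199 ± 117 CPM in oligodendrocytes and 915 ± 133 CPM in astrocytes. Oligodendrocyte clusters 15 and 17 held 929 ± 116.5 and 1132 ± 90.9 CPM of Cdh20, and cluster 26 held 1723 ± 204 CPM. With more doublets removed, the highest class of Cdh20 was oligodendrocytes. Cdh19, also of type II, was highest in oligodendrocytes at 508 ± 75.4 CPM and next in astrocytes at 428 ± 73.9 CPM. In oligodendrocyte clusters 15 and 17 it was at 435 ± 111.5 CPM (n = 13) and 554.5 ± 129 CPM (n = 14). Cdh10 stood at 793 ± 73.6 CPM in astrocytes and 785 ± 149 CPM in newly formed oligodendrocytes, within the spread of either, and astrocytes were the higher in 8 of 15 mice. Cdh6 was highest in OPCs at 182 ± 19.6 CPM, and subiculum neurons followed at 154.5 ± 34.9 CPM, with OPCs the higher in 12 of 14 mice.

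Within the hippocampus, the principal neurons differed in their cadherins. Cdh9, a type II cadherin known from the synapse between mossy fibres and CA3 neurons, was at 676 ± 111 CPM in dentate granule neurons and 584 ± 98.7 CPM in CA3 neurons. Granule neurons were the higher of the pair in 15 of 15 mice. In CA1 neurons the level of Cdh9 was 35.7 ± 11.6 CPM and in CA2 neurons 63.4 ± 31.4 CPM. Cdh24 showed its highest level in CA3 neurons in 15 of 15 mice, at 54.5 ± 8.60 CPM against 31.4 ± 13.2 CPM in subiculum neurons and 3.88 ± 1.67 CPM in dentate granule neurons. Cdh11 was highest in CA3 neurons at 638 ± 42.2 CPM, followed by CA1 neurons at 541 ± 50.0 CPM, and CA3 exceeded CA1 in 15 of 15 mice. Pcdh1 was highest in CA2 neurons at 146 ± 34.2 CPM, and the means of mossy cells, CA3 and CA1 neurons lay between 89.9 and 121 CPM. Cdh13, the lipid-anchored cadherin, was at 890 ± 206 CPM in mossy cells, 253 ± 35.4 CPM in granule neurons, 174 ± 132 CPM in CA2 neurons and 26.1 ± 13.7 CPM in CA1 neurons. Cdh8 stood at 953 ± 106 CPM in granule neurons and 503 ± 47.5 CPM in CA1 neurons, below its highest class, the habenular neurons, at 1209 ± 336 CPM (n = 12). Cdh10 had the opposite order, with 427.5 ± 80.3 CPM in CA1 neurons and 61.8 ± 13.0 CPM in granule neurons.

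Cajal-Retzius neurons, the reelin-producing cells of the marginal zone, stood out by Cdh4, a type I cadherin also called R-cadherin. Cdh4 was at 985 CPM in the lowest mouse, 1246 CPM in the median mouse and 1860 CPM in the highest, and was counted in 91.4% of these nuclei against 1.12% of oligodendrocytes, whose median depth was similar at 2557 UMIs. The next class, neurons marked by Gata3 or Otx2, was 2.99-fold lower at 448 ± 159 CPM. Among named classes, these Gata3 or Otx2 neurons held the highest levels of the type II cadherins Cdh18 (1588 ± 276 CPM), Cdh12 (668 ± 159 CPM) and Cdh7 (132 ± 40.3 CPM). Clusters without a class name held more Cdh18 and Cdh7, as given further below. Cdh18 was also present in the choroid plexus epithelium, where it was counted in 78.2% of nuclei at 623 ± 145 CPM, behind the GABAergic cluster numbered 12. Among interneurons, the Vip class was highest for Pcdh10 (196 ± 38.6 CPM) and Pcdh20 (55.1 ± 22.5 CPM). Astrocytes and OPCs at 173 CPM each were within the spread of the former, and granule neurons at 42.1 ± 7.15 CPM within that of the latter. Compared mouse by mouse, the Vip class was above astrocytes for Pcdh10 in 10 of 15 mice. For Pcdh20 it was above granule neurons in 12 of 15. A small GABAergic cluster, numbered 12 and present with 10 nuclei in only 3 mice, held the highest class means of Cdh13 (1352 ± 189 CPM) and Pcdh8 (34.31 ± 7.47 CPM), and 51.8% of its nuclei came from 1 mouse. Without it, the highest class means were those of Sst interneurons for Cdh13 (1108 ± 261 CPM, n = 15) and dentate granule neurons for Pcdh8 (27.9 ± 7.30 CPM, n = 15). Some single clusters had higher means, with Cdh13 at 1670 ± 282 CPM in the smaller Sst cluster (n = 6). Pcdh8 was at 35.8 ± 21.7 CPM in cluster 6 of the granule neurons (n = 15). Cdh2, or N-cadherin, a type I cadherin, ranged from 103 CPM in microglia to 696 ± 82.2 CPM in thalamic neurons. Cdh22 was highest in habenular neurons at 111 ± 48.7 CPM and did not differ there from subiculum neurons at 97.1 ± 38.8 CPM beyond the spread. Habenular neurons were the higher in 9 of the 11 mice with both.

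**Figure D2:**
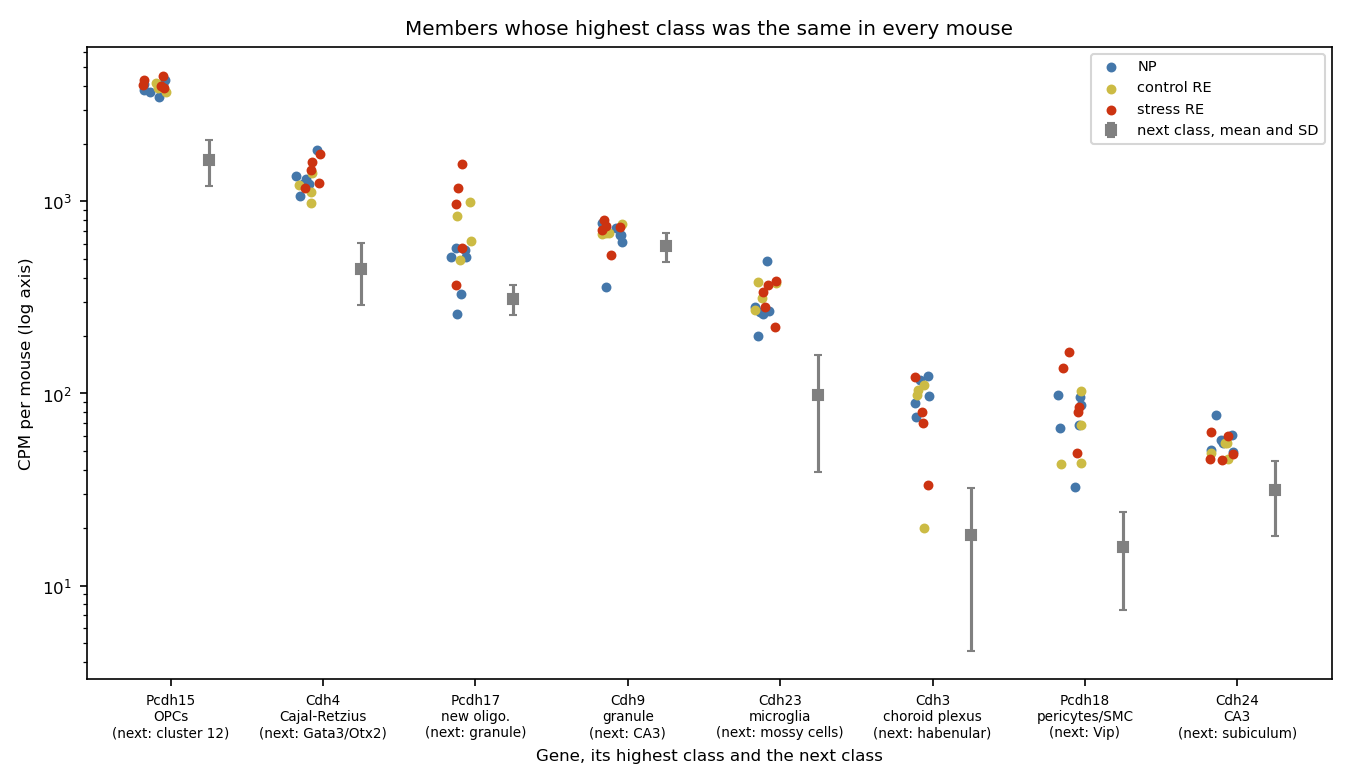
CPM on a log axis for the 8 members whose highest class was the same in every mouse; points are mice coloured by group, and grey squares with lines give the mean and SD of the next class. Pcdh15 in OPCs spans 3499 to 4514 CPM, well above its next class, and the colours of the 3 groups intermingle for most genes.

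Several members were highest in vascular and epithelial classes. Cdh5, the VE-cadherin of endothelial junctions, was at 140 ± 33.6 CPM in endothelial cells and 94.6 ± 28.1 CPM in vascular leptomeningeal cells, and at most 2.29 CPM in any other class. Pcdh18 was highest in pericytes and smooth muscle in 15 of 15 mice at 81.4 ± 35.7 CPM, 5.13-fold above the next class. Pcdh19, a gene of the X chromosome, was also highest there at 175 ± 66.7 CPM, but Pvalb interneurons followed at 133 ± 36.1 CPM. Cdh3, or P-cadherin, was highest in the choroid plexus epithelium in 13 of 13 mice, at 87.7 ± 32.1 CPM, and habenular neurons followed at 18.4 ± 13.8 CPM. Cdh26 was at 46.0 ± 78.0 CPM in ependymal cells (n = 10), from 0 to 254 CPM with a median of 16.1 CPM, and at most 0.660 CPM in other classes. Cdh1, or E-cadherin, and Cdh15 to Cdh17, known from epithelia and muscle, stayed under 20 CPM in every class.

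Clusters of nuclei within 1 class differed in their members as well. The class of astrocytes was made of 3 clusters that were each found in 15 mice. Cdh4 was at 426 ± 136 CPM in the first (numbered 20), 140 ± 22.9 CPM in the second (19) and 11.8 ± 5.94 CPM in the third (29). Cdh22 was at 4.57 ± 4.93, 1.57 ± 1.68 and 85.5 ± 21.4 CPM in the same order, highest where Cdh4 was lowest. Pcdh7, Cdh20 and Cdh19 were lowest in the cluster rich in Cdh4. Vascular leptomeningeal nuclei fell into a large cluster with Cdh11 at 162 ± 44.9 CPM and a small one with 1455 ± 329 CPM, which exceeded every class mean of that gene. The small cluster also had more Cdh6 (190 ± 83.9 against 12.0 ± 9.82 CPM). Cdh1 stood there at 43.8 ± 49.9 CPM against 5.50 ± 10.0 CPM, with a spread as wide as its mean. Of the Sst interneurons, the larger cluster (n = 15) had 606 ± 120 CPM of Cdh11 and 336 ± 105 CPM of Cdh9, and the smaller one (n = 6) 181 ± 30.9 CPM and 758 ± 171 CPM. The smaller Sst cluster had 112 ± 17.9 CPM of Cdh7 where the larger had 14.2 ± 6.73 CPM. Pvalb interneurons split likewise by Pcdh17, at 50.6 ± 21.4 CPM (n = 15) in the larger and 361 ± 200 CPM (n = 5) in the smaller cluster. Neurons marked by Gata3 or Otx2 held 1256 ± 262 CPM of Pcdh15 in their larger cluster and 112 ± 63.4 CPM in the smaller. Thalamic neurons held 864 ± 121 CPM of Cdh8 in the larger cluster and 48.9 ± 13.0 CPM (n = 5) in the smaller.

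**Figure D3:**
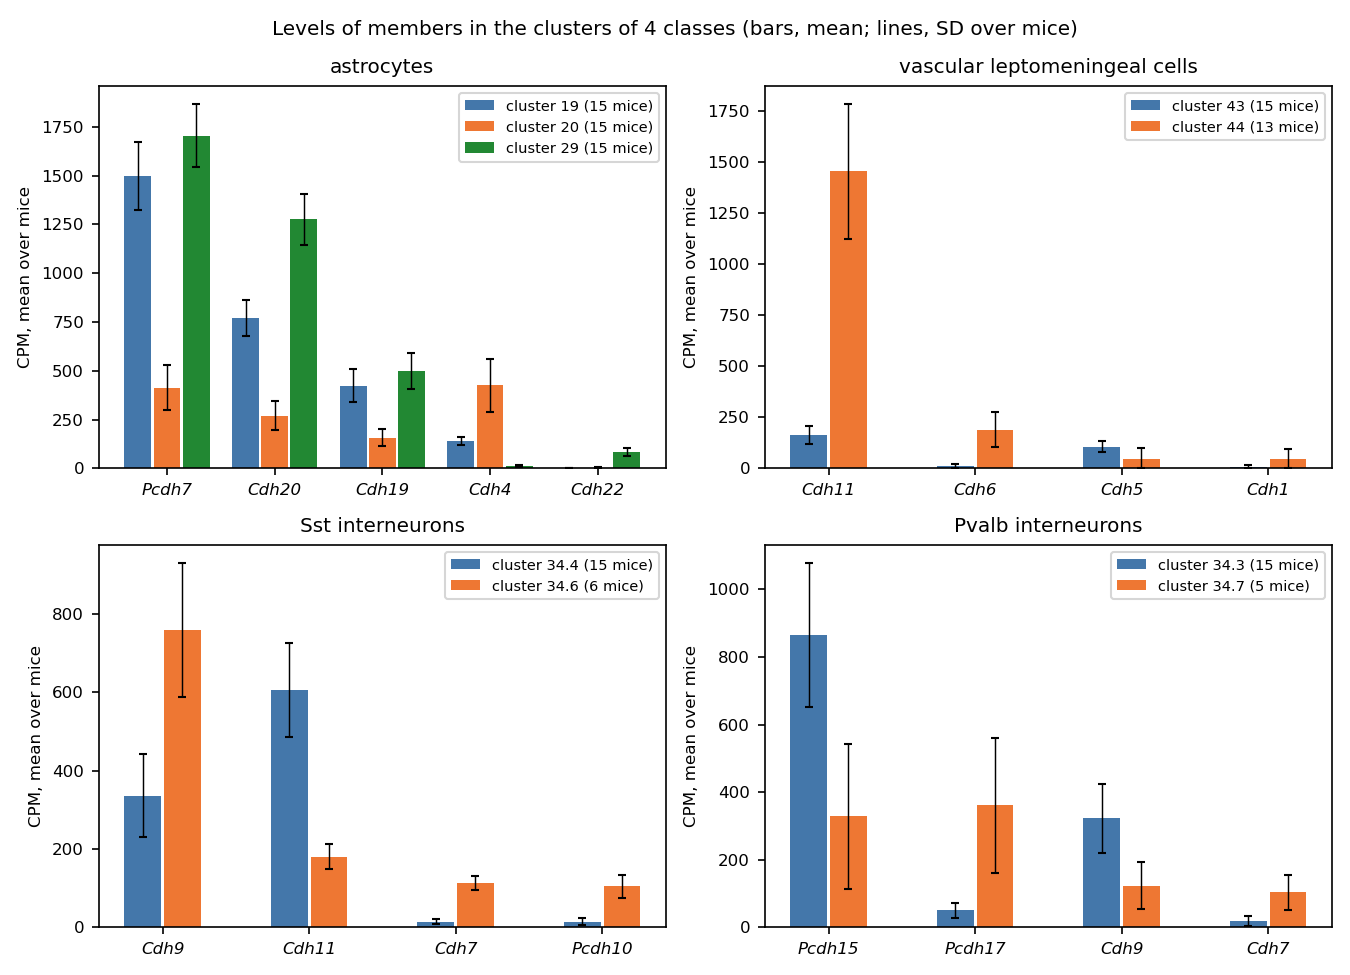
Bars give the mean CPM over mice, with lines for the SD, of selected members in the clusters of astrocytes, vascular leptomeningeal cells, Sst interneurons and Pvalb interneurons. The astrocyte cluster with the least Cdh4 has the most Cdh22, and Cdh11 is at 1455 CPM in the small leptomeningeal cluster.

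The members lie on 11 chromosomes, and several stand side by side. In GRCm38, chromosome 8 holds 8 of them between positions 99024471 and 122867397, and chromosome 15 holds 5 type II cadherins, Cdh6, Cdh9, Cdh10, Cdh12 and Cdh18, between 13028701 and 23474418. The highest classes of these 5 were OPCs, granule neurons, astrocytes and, for both Cdh12 and Cdh18, the Gata3 or Otx2 neurons. On chromosome 1, Cdh20 (104768529 to 104995481, plus strand), Cdh7 (109982431 to 110140157, plus strand) and Cdh19 (110888326 to 110977584, minus strand) are the 3 members of this family there. Cdh20 and Cdh19 were highest in oligodendrocyte-lineage classes, whereas Cdh7 was at 9.31 CPM or less in astrocytes, OPCs and both oligodendrocyte classes. Genes of this family differ greatly in length, from 4.54 kb for Pcdh8 to 1550 kb for Pcdh15, and nuclei hold unspliced RNA. Divided by gene length, the level in the highest class was 19.3 CPM per kb for Pcdh9, 8.28 CPM per kb for Pcdh20 and 7.56 CPM per kb for Pcdh8, and Cdh12 had the lowest value of the described members at 0.586 CPM per kb. On this scale Pcdh15 came to 2.58 CPM per kb and Cdh24 to 5.38 CPM per kb, the reverse of their order in CPM.

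For the comparison of the groups, UMIs were summed per mouse and class and tested with edgeR's quasi-likelihood test over all genes of a class. After the filter on low counts, 29 members were tested in at least 1 of 27 classes, with 10 to 26 members per class. Cdh1, Cdh16, Cdh17, Cdh26 and Pcdh12 passed the filter in none. No member passed an adjusted p of 0.05 in any class in any of the 3 comparisons with this filter. Without it, 6 of 743, 5 of 773 and 11 of 805 member tests passed (0.808%, 0.647% and 1.37%), beside 0.0414%, 0.0925% and 0.0724% of all genes, for control RE minus NP, stress RE minus control RE and stress RE minus NP. With the filter, the share called over all genes was 0% for control RE minus NP, 0.000461% for stress RE minus control RE, which is 1 gene and class, and 0% for stress RE minus NP. DESeq2 called 0, 1 and 0 members in the same order, and 3, 31 and 2 genes and classes in all.

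At an unadjusted p under 0.05, edgeR found 29 of 477 member tests (6.08%) for control RE minus NP, where the share over all genes was 3.07%. For stress RE minus control RE the count was 20 of 499 (4.01%) beside 2.87% of all genes. For stress RE minus NP it was 52 of 508 (10.2%) beside 3.69% of all genes. With 1 mouse left out, the counts for control RE minus NP ran from 17 (3.53%, beside 2.52% of all genes) without control RE mouse 2 to 45 (9.38%, beside 3.32%) without control RE mouse 3. Those for stress RE minus control RE ran from 12 (2.43%, below the 2.56% of all genes) without stress RE mouse 4 to 37 (7.46%, beside 5.02%) without stress RE mouse 5. Those for stress RE minus NP ran from 34 (6.71%, beside 3.04%) without NP mouse 2 to 83 (16.4%, beside 5.14%) without stress RE mouse 5, and NP mouse 4 left out gave 79 (15.7%, beside 4.98%). DESeq2 gave 12 for stress RE minus control RE (2.40%, beside 1.94% of all genes). Of the tests counted with all mice, 10, 10 and 23 were higher and 19, 10 and 29 lower in the first-named group. The tests of 1 gene in many classes share mice, and the last comparison shares its mice with the other two. The median absolute difference of the members was 0.18, 0.17 and 0.22 on the log2 scale, and that of all genes ranged from 0.10 to 0.27 between classes. The median SE of a member was 0.26 to 0.27. Most members were also tested in their own highest class. Of the 23, 23 and 25 members tested there, 2, 0 and 1 had an unadjusted p under 0.05. The log2 differences ran from -0.45 for Pcdh1 to 0.73 for Pcdh17 in control RE minus NP, from -0.33 for Pcdh20 to 0.39 for Cdh20 in stress RE minus control RE, and from -0.37 for Cdh22 to 1.09 for Pcdh17 in stress RE minus NP. Pcdh15 in OPCs stood at 3915 ± 293 CPM in NP, 3927 ± 176 CPM in mice of the control RE group and 4140 ± 253 CPM under stress RE. Cdh4 in Cajal-Retzius neurons stood at 1345 ± 271, 1178 ± 175 and 1451 ± 246 CPM in the same order.

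The member and class pairs with the smallest p are given as values, 8 for each comparison, since none passed the adjusted test. Levels here are CPM scaled with edgeR's TMM factors of the class. Some pairs lie in classes where the member is low, and the part of free RNA in their differences was not tested. Values within a batch, which the labels number without saying what it was, are log2 ratios of group means after adding 1 CPM. Batch 1 held no control RE mouse, so that it gave values within a batch only for stress RE minus NP. Its NP and stress RE mice still entered the edgeR tests of the other comparisons, whose main fit had no batch term.

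For control RE minus NP, the smallest p belonged to the class named mossy cells, after glutamatergic neurons of the hilus, where few nuclei were available (10 to 41 per mouse). It was 1 cluster with 3 of the mossy cell markers detected, and its mean log2 fold was higher over the CA3 marker list, so that its name is uncertain in every pair given for it. Pcdh17 was at 49.9 ± 21.0 CPM (n = 3) in NP and 23.1 ± 17.3 CPM (n = 4) in control RE mice, a log2 difference of -1.23 ± 0.40 (SE; adjusted p = 0.576 in edgeR), and the groups overlapped. It was -0.72 without NP mouse 6 and -1.87 without control RE mouse 4. Cdh20 in mossy cells was at 29.6 ± 8.29 and 10.0 ± 5.80 CPM, with 1 to 8 UMIs per control RE mouse and no overlap of the groups (-1.46 ± 0.49; adjusted p = 0.576). In mossy cells 6 of 20 members had an unadjusted p under 0.05 in this comparison, all lower in control RE, beside 6.70% of all genes of that class. In Cajal-Retzius neurons, Cdh8 and Cdh10 stood higher in control RE mice. Over all mice and without TMM scaling, Cdh8 was at 230 CPM in this class and Cdh10 at 185 CPM. Their medians over classes were 414 and 229 CPM, and the part of free RNA in the differences was not tested. Cdh8 was at 289.5, 377, 396 and 468 CPM in the 4 control RE mice, and had a lowest, median and highest value of 178, 196.5 and 383 CPM in the 6 NP mice. The difference was 0.65 ± 0.23 on the log2 scale (adjusted p = 0.874), and came to 0.35 within batch 2 and 1.10 within batch 3. Cdh10 differed by 0.56 ± 0.21 there (adjusted p = 0.906). The other 4 pairs were Pcdh1 in CA2 neurons (-0.45 ± 0.15), Cdh24 in OPCs (-0.79 ± 0.28), Pcdh17 in endothelial cells (0.61 ± 0.21) and Cdh12 in macrophages (0.66 ± 0.24), with adjusted p of 0.997 to 1.00. Pcdh17 in endothelial cells came to 0.40 with more doublets removed. All 8 pairs had the same sign within batches 2 and 3.

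For stress RE minus control RE, the smallest p was that of Cdh13 in striatal projection neurons. It stood at 555, 713 and 880 CPM in 3 control RE mice and at 297, 337 and 492 CPM in 3 stress RE mice, so that the groups did not overlap. The log2 difference was -0.97 ± 0.21, with an adjusted p of 0.270 in edgeR and of 0.0227 in DESeq2, and it was -1.08 within batch 2, with 1 mouse a group, and -0.86 within batch 3. In the order of the levels above, the control RE mice gave 23, 41 and 99 of these nuclei. The stress RE mice gave 868, 259 and 83. The class itself thus differed in number between the groups, and the part of this in the result was not tested. The NP mice, of which 2 were measured, stood at 436 and 621 CPM, and 11.2% of all genes of this class had an unadjusted p under 0.05 in this comparison. Pcdh9 also stood lower in stress RE mice there (-0.46 ± 0.15; adjusted p = 0.330), at 2257, 2475 and 2955 CPM in the control RE group and 1617, 1791 and 2206 CPM under stress RE. Cdh8 in Cajal-Retzius neurons was at 163, 173, 197, 273 and 288 CPM in the 5 stress RE mice, all below the 289.5 to 468 CPM of the control RE mice (-0.81 ± 0.24; adjusted p = 0.597). Within batches 2 and 3 the difference was -0.71 and -0.72. The stress RE values overlapped those of the NP mice, which ran from 178 to 383 CPM. The mean of Cdh8 in this class lies below its median over classes, and the part of free RNA was not tested. Cdh13 in endothelial cells had a difference of -0.91 ± 0.33 (adjusted p = 1.00), of -1.78 within batch 2, of -0.13 within batch 3 and of -0.61 without control RE mouse 2. The remaining 4 pairs were Pcdh20 in mossy cells (0.74 ± 0.29), Pcdh8 in OPCs (0.96 ± 0.38, at 4 to 12 UMIs per mouse), Pcdh10 in proliferating progenitors (0.80 ± 0.32) and Pcdh19 in the same class (-0.67 ± 0.27), with adjusted p of 0.998 to 1.00. Pcdh19 came to -0.39 with more doublets removed. The class named proliferating progenitors was 1 cluster, whose leading genes held Top2a, a gene of dividing cells, beside Dlx1 and Dlx6os1, known from GABAergic precursors, so that its name is uncertain. All 8 pairs kept their sign within both batches.

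**Figure D4:**
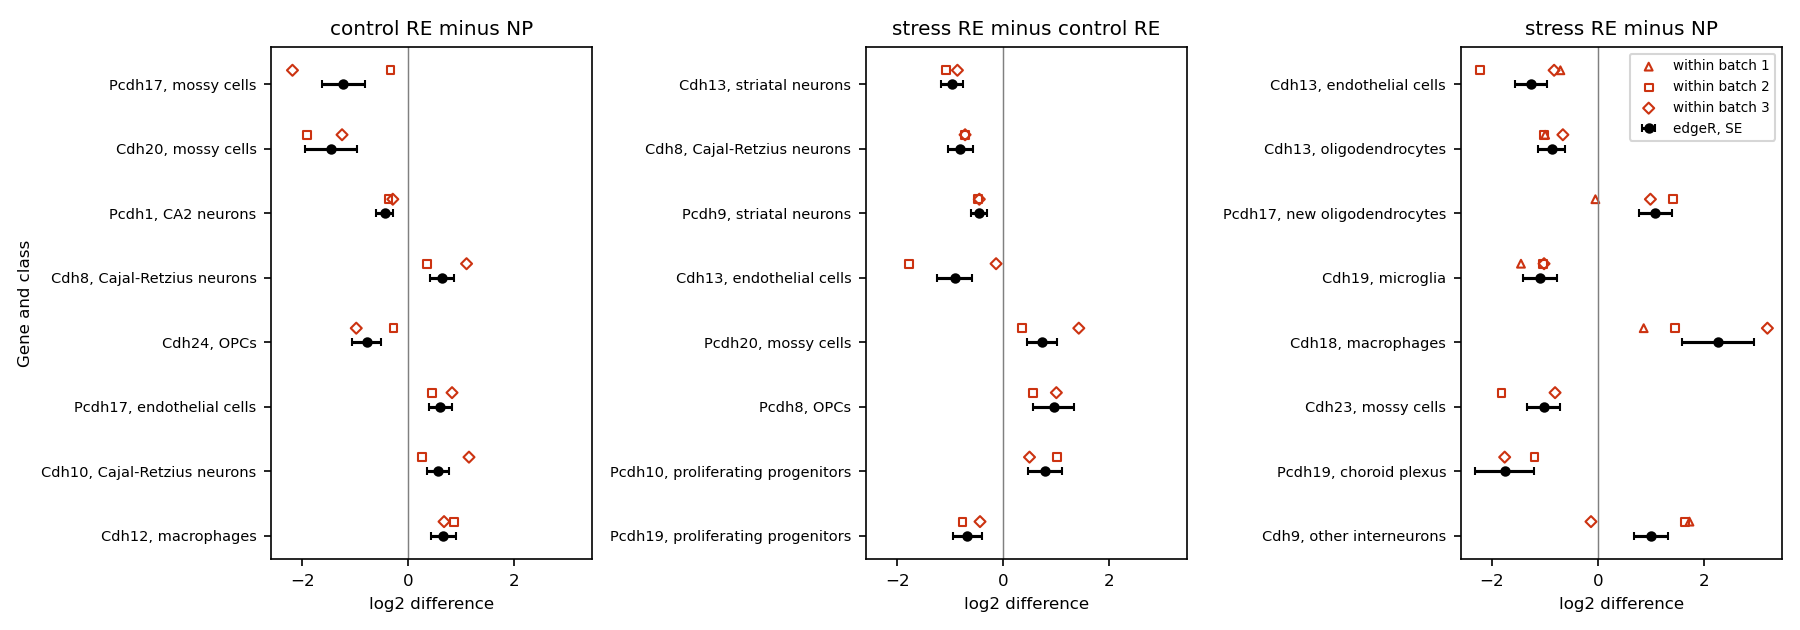
Log2 differences (horizontal axis) of the 8 member and class pairs with the smallest p in each of the 3 comparisons; black points with lines are edgeR estimates with their SE, and red open symbols are the values within batches 1, 2 and 3. Pcdh17 in newly formed oligodendrocytes and Cdh9 in other interneurons have 1 batch on the other side of 0.

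For stress RE minus NP, Cdh13 gave the smallest values of p. In endothelial cells its lowest, median and highest levels in the 6 NP mice were 227, 369 and 622 CPM. The 5 stress RE mice stood at 98.9, 116, 175, 181 and 199 CPM, all below the NP mice, and the 4 control RE mice at 147, 269, 308 and 435 CPM lay across both. The log2 difference was -1.26 ± 0.30 (adjusted p = 1.00), and it was -0.71, -2.23 and -0.82 within batches 1, 2 and 3. Endothelial Cdh13 rested on 14 to 146 UMIs per mouse. In oligodendrocytes, of which only clusters 15 and 17 entered the group comparisons, Cdh13 was at 35.6 ± 11.6 CPM in NP and 18.9 ± 3.90 CPM in stress RE mice (-0.87 ± 0.25; adjusted p = 1.00). These came from 18 to 1026 nuclei and 2 to 62 UMIs per NP mouse, and from 19 to 1575 nuclei and 1 to 53 UMIs per stress RE mouse. Over the 25 classes tested, Cdh13 was higher in stress RE in 8, its log2 differences ran from -1.47 to 1.35, and 4 classes had an unadjusted p under 0.05, beside 3.69% of all genes tested in this comparison. Cdh13 was named for its small p, so that this count is a description.

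Among the members tested in their own highest class, Pcdh17 in newly formed oligodendrocytes had the largest log2 difference. The NP mice had a lowest, median and highest level of 276, 565 and 624 CPM, the control RE mice stood at 525.8, 690.5, 940 and 1148 CPM, and the stress RE mice at 419, 604, 1084, 1398 and 1766 CPM. The groups overlapped, and the difference of stress RE minus NP was 1.09 ± 0.32 (adjusted p = 0.588), with -0.04, 1.42 and 1.00 within batches 1, 2 and 3. That of control RE minus NP was 0.73 ± 0.34 (adjusted p = 0.999). Cdh18 in macrophages had the largest estimate at 2.27 ± 0.68 (adjusted p = 0.892), and rested on a span of 61.5 to 1727 CPM within the stress RE group, with 1.36 as the estimate without stress RE mouse 3. Cdh19 in microglia (-1.08 ± 0.32) and Cdh23 in mossy cells (-1.02 ± 0.31) were lower in every stress RE than in every NP mouse, as was Pcdh19 in the choroid plexus epithelium (-1.76 ± 0.55; 5 to 26 UMIs per NP mouse and 2 to 5 per stress RE mouse), at adjusted p of 0.910 to 1.00. The NP level of Cdh23 in mossy cells came from 3 mice, at 101, 118 and 279 CPM, and without the highest, NP mouse 3 with 10 nuclei, the difference was -0.56. Microglial Cdh19 was at 10.2 ± 3.00 CPM against 22.4 ± 7.25 CPM, from 3 to 23 UMIs per mouse, while the highest level of Cdh19 was in oligodendrocytes. Cdh9 in the other interneurons was the eighth pair (1.01 ± 0.32; adjusted p = 0.974), at -0.13 within batch 3 and 1.58 without NP mouse 6. In 6 of the 8 pairs the sign was the same within every batch.

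**Figure D5:**
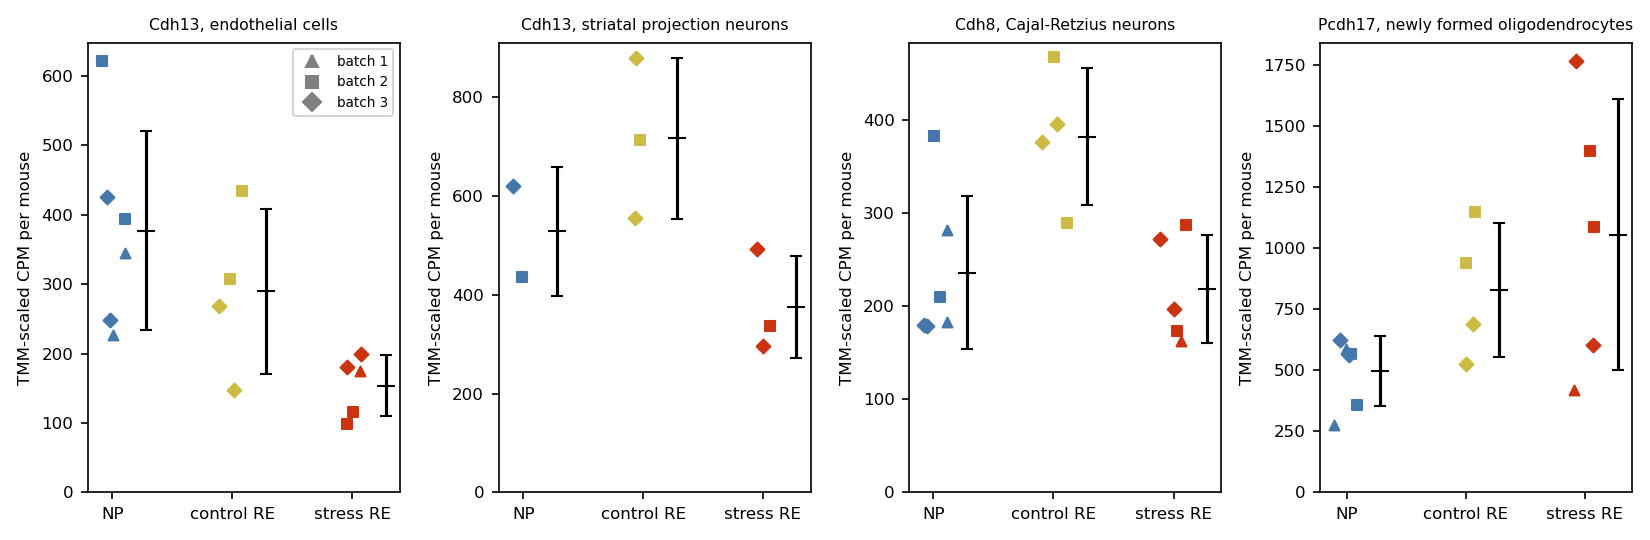
TMM-scaled CPM per mouse for 4 pairs, with the symbol giving the batch, the colour the group, and black lines the mean and SD. All 5 stress RE mice lie below all 6 NP mice for Cdh13 in endothelial cells, and the stress RE mice span 419 to 1766 CPM for Pcdh17 in newly formed oligodendrocytes.

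Genes that act with cadherins were counted in the same tests. Of the 11 catenins and linkers, among them Ctnnb1 and Ctnna2, which join classical cadherins to actin, none passed an adjusted p of 0.05 in either direction, and 4 of 236, 6 of 247 and 11 of 254 tests had an unadjusted p under 0.05 for control RE minus NP, stress RE minus control RE and stress RE minus NP. These are 1.70%, 2.43% and 4.33%, beside 3.07%, 2.87% and 3.69% of all genes. The 4 nectins, adhesion proteins of the same junctions, gave 4 of 45, 1 of 47 and 4 of 47 such tests (8.89%, 2.13% and 8.51%). Of 22 other genes of the cadherin superfamily, such as the Fat, Dchs and Celsr genes, 19 were tested, with 22 of 218, 10 of 230 and 13 of 233 such tests (10.1%, 4.35% and 5.58%), of which 4, 3 and 0 were higher in the first-named group. The 56 clustered protocadherins, which serve the self-recognition of neurites, had 54 genes tested and gave 5 of 240, 5 of 258 and 7 of 245 (2.08%, 1.94% and 2.86%). No gene of these 4 lists was called by edgeR or DESeq2 in any class.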

How the data were processed

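Nuclei were isolated from dHF micropunches and sequenced with a droplet 3′ method, with 1 library per mouse. The authors aligned the reads with Cell Ranger 7.1.0, per the submitters' processing notes, to mm10, and deposited UMI counts per gene and barcode. The study's methods name GRCm39 (mm10) for the annotation behind its mitochondrial share. Clusters whose leading genes held more markers of another list than of their own entered class levels but no group comparison. The deposited counts carry none of the later corrections for ambient RNA or doublets. Barcodes with at least 200 genes and at most 5% mitochondrial UMIs were kept, and a doublet rate of 0.8% per 1000 barcodes was removed. Nuclei were clustered with Leiden (scanpy 1.11.5) without the members, and clusters were named from marker lists with thresholds chosen once the clusters were known. Counts were summed per mouse and class, for mice with at least 10 nuclei and classes with at least 3 such mice in both groups compared, and tested with edgeR 4.0.16 (R 4.3.3; quasi-likelihood, TMM, low-count filter). Adjusted p are Benjamini-Hochberg values over all genes of a class, at a threshold of 0.05. DESeq2 1.42.0, no filter, a batch term and each mouse left out were alternatives. Replicates were separate mice. The members and lists were chosen with earlier results of these data known. Named were the members with at least 20 CPM in a class and, where fewer than 8 passed the test, the 8 pairs of member and class with the smallest p. Scripts were tested on simulated data. Positions are from the GRCm38 annotation. A further gene list is not reported here.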

Additional observations from a re-analysis of the deposited data

Results flagged for a closer look

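Among 128 sets of mice from 1 group and 1 class, 14 had a highest or lowest mouse that stood apart from the others of its group by the 95% criterion of Dixon, which chance meets in about 1 in 20 such sets. Levels are in CPM, and are TMM-scaled for Cdh18 in macrophages, Cdh9 in other interneurons and Pcdh19 in the choroid plexus epithelium. Those of Cdh9 in other interneurons come from clusters 34.2 and 34.5 only. Cdh10 in astrocytes was 705.6 in control RE mouse 4, with the others at 821.8 to 844.9. Cdh12 in Gata3 or Otx2 neurons was 414.9 in NP mouse 2, against 674.5 to 742.5, and 260.0 in stress RE mouse 1, against 703.8 to 802.6. NP mouse 2 also had 216.4 of Cdh22 in habenular neurons, against 100.1 to 139.2, and 1860 of Cdh4 in Cajal-Retzius neurons, against 1072 to 1357. NP mouse 4 had 487.4 of Cdh23 in microglia, against 199.3 to 282.5, and 28580 of Pcdh9 in newly formed oligodendrocytes, against 7265 to 15220. Cdh26 in ependymal cells was 254.2 in NP mouse 1, against 12.04 to 50.04. In the choroid plexus epithelium, control RE mouse 4 had 19.93 of Cdh3, against 98.41 to 111.1, and 44.31 of Pcdh19, against 0 to 6.106. Cdh9 in dentate granule neurons was 762.6 in control RE mouse 2, against 676.4 to 684.7, and in other interneurons 119.2 in NP mouse 6, against 37.77 to 44.77. Pcdh7 in newly formed oligodendrocytes was 2782 in stress RE mouse 1, against 3162 to 3227. Cdh18 in macrophages was 272.3 in NP mouse 5, against 68.92 to 133.2.

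Clusters that received no class name lay above the highest named class for 3 members. Cdh18 was at 3091 ± 713 CPM (SD, n = 9) in cluster 46, led by Hs3st2 and Ccn2, and at 2380 ± 455 CPM (SD, n = 15) in cluster 7, led by Ebf2, Ebf1 and Ebf3, against 1588 CPM in the Gata3 or Otx2 neurons. Cdh11 was at 654.6 ± 55.7 CPM in cluster 46, against 638 CPM in CA3 neurons. Cdh7 was at 171.4 ± 28.8 CPM in cluster 7, against 132 CPM in the Gata3 or Otx2 neurons.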

How the results depend on the processing

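Without the filter on low counts, edgeR called 6, 5 and 11 member and class pairs for control RE minus NP, stress RE minus control RE and stress RE minus NP, and 76, 64 and 133 tests had an unadjusted p under 0.05 (10.2%, 8.28% and 16.5%, beside 3.76%, 3.76% and 4.22% of all genes). DESeq2 called 1 pair and had 12 such tests for stress RE minus control RE (2.40%, beside 1.94% of all genes). The cause was not tested. With each mouse left out in turn, no member was called (0 to 0), and the tests with an unadjusted p under 0.05 numbered 17 to 45 for control RE minus NP (17 without control RE mouse 2, 45 without control RE mouse 3), 12 to 37 for stress RE minus control RE (12 without stress RE mouse 4, 37 without stress RE mouse 5) and 34 to 83 for stress RE minus NP (34 without NP mouse 2, 79 without NP mouse 4, 83 without stress RE mouse 5). Among the named pairs no direction reversed in any alternative run, but with more doublets removed Pcdh17 in endothelial cells (control RE minus NP) moved from 0.61 to 0.40 and Pcdh19 in proliferating progenitors (stress RE minus control RE) from -0.67 to -0.39. Without the filter Cdh13 in striatal projection neurons for stress RE minus control RE passed the adjusted threshold, and for stress RE minus NP so did Cdh13 in endothelial cells, Pcdh17 in newly formed oligodendrocytes, Cdh18 in macrophages, Cdh23 in mossy cells and Cdh9 in other interneurons. With batch as a term, no member was called and 23, 27 and 55 tests had an unadjusted p under 0.05 (4.82%, 5.41% and 10.8%, beside 2.42%, 3.61% and 4.07% of all genes). The highest class was the same for 25 of 29 members with the members among the clustering genes, 26 with TMM scaling, 28 with counts pooled over mice, 28 with more doublets removed, 25 with at least 30 nuclei, and 27 to 29 with a mouse left out. Members counted as changed in any of these settings were Cdh6, Cdh10, Cdh13, Cdh20, Cdh22, Cdh26, Pcdh8, Pcdh9, Pcdh10, Pcdh19 and Pcdh20. No paired analysis was possible because the replicate numbers only name the mice in accession order.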
